A study of Mus musculus with 36 samples.

Results

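The genes described here make the enzymes that cut extracellular matrix in the kidney and the proteins that hold those enzymes in check: the matrix metalloproteinases Mmp2, Mmp7 and Mmp14, the tissue inhibitors of metalloproteinases Timp1, Timp2 and Timp3, the secreted protease Adamts1, and the plasminogen activators Plau and Plat. They were chosen by symbol, and 8 of these 9 genes are analysed here, out of 18049 genes in the deposited table; Mmp7 is not analysed here. All 8 passed the filter on low counts at P0, P3 and P12. Whole kidneys of C57BL/6 mice were sequenced in 4 genotypes on the day of birth (postnatal day 0, P0) and at P3 and P12, with 3 mice in each of the 12 groups and 36 libraries in all. The digenic mice carried both mutations, Pkd1-RC/RC mice were homozygous for the RC allele of Pkd1 alone, Pkhd1-/- mice lacked Pkhd1 alone, and wild-type (WT) mice carried neither. Pkd1 encodes polycystin-1 and RC is an allele of reduced function, and Pkhd1 encodes fibrocystin; these are genes of dominant and recessive polycystic kidney disease. The comparisons ask how each mutation and their combination alter these genes at each age. The labels call the tissue whole kidney and do not say whether littermates were used.

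Matrix metalloproteinases are zinc enzymes that are made as inactive precursors and cut collagens, laminins and other matrix proteins once activated. TIMPs bind their active sites and block them. The plasminogen activators urokinase (Plau) and tissue-type activator (Plat) convert plasminogen to plasmin, which degrades fibrin and can activate several metalloproteinases, and inhibitors of the serpin family block the activators. In the kidney, urokinase is made by tubular epithelium and is released into urine, while injury and fibrosis are settings in which TIMP1 is known to be raised.

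Levels are RPKM, read counts scaled by gene length and library size, computed from the deposited counts and the deposited gene lengths. Comparing them between genes rests on those lengths. Totals ran from 51411240 to 80789299 counts per library. Pkhd1 checked the labels for the knockout only. At P0 it lay between 0.667 and 0.779 RPKM in digenic and 0.412 and 0.723 RPKM in Pkhd1-/- kidneys. It was 4.41 to 7.62 RPKM in Pkd1-RC/RC and 4.55 to 5.56 RPKM in WT kidneys. At P12 it lay between 1.32 and 2.29, 1.34 and 1.42, 15.1 and 16.3, and 12.4 and 17.4 RPKM in the same 4 genotypes. Digenic overlapped Pkhd1-/- and Pkd1-RC/RC overlapped WT at both ages, so that the RC allele was not checked. The column headers of 2 libraries go against their labels, which were used: that of digenic replicate 1 at P12 gives P3, and that of Pkd1-RC/RC replicate 2 at P12 gives Pkhd1. Pkhd1 was 16.3 RPKM in that Pkd1-RC/RC library, far above the Pkhd1-/- mice and within the range of the WT mice at P12. It was 2.29 RPKM in that digenic library, against 0.697 to 0.792 RPKM in digenic mice at P3. Calls of members at P12 are given with all libraries and, where stated, without 1 of these 2. Counts of the pathway and marker lists at P12 use all libraries. The sex read from the libraries was female in 3 of 3 digenic and 0 of 3 Pkhd1-/- mice at P3, against 1 of 3 WT mice. Transcripts of the adrenal gland stood over 5 times the median in 8 libraries, among them 2 of the 3 digenic libraries at P12.

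Urokinase had the highest level of the 8 genes in every group, and Timp1 the lowest. Positions are from GENCODE M21 on GRCm38, and the deposited start and end differ from them for Mmp2, Mmp14, Plau and Plat. The deposited lengths of Plat and Mmp14 are 2531 and 2597 bases, beside 6241 and 5960 exonic bases in GENCODE. Plau lies at chr14:20836660-20843385 on the plus strand, Plat at chr8:22757727-22782844 plus, Mmp2 at chr8:92827291-92853420 plus, Mmp14 at chr14:54431612-54445364 plus, Adamts1 at chr16:85793827-85803113 minus, Timp2 at chr11:118301069-118355740 minus, Timp1 at chrX:20870166-20874735 plus and Timp3 at chr10:86300372-86349506 plus; all are protein-coding. Timp1 and Timp3 lie within Syn1 and Syn3, which are transcribed from the opposite strand. Of the exonic bases of Timp3, 1733 (21.3%) are shared with Syn3, and without a statement of strand in the labels, reads of Timp3 and Syn3 cannot be told apart there. Timp1 shares 0 exonic bases with Syn1.

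The 250 bases before the start of Timp1, Adamts1 and Mmp14 are shown because these members rose in digenic kidneys at P12 (below) and RefSeq lists a promoter for them on GRCm38.p6. The only motif match in these stretches is in capitals.
Timp1, chrX:20869916-20870165, plus strand: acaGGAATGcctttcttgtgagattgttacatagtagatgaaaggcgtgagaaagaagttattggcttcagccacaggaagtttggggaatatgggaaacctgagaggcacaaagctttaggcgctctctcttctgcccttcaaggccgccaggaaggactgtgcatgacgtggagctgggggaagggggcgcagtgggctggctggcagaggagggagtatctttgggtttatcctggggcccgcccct
Adamts1, chr16:85803114-85803363, minus strand: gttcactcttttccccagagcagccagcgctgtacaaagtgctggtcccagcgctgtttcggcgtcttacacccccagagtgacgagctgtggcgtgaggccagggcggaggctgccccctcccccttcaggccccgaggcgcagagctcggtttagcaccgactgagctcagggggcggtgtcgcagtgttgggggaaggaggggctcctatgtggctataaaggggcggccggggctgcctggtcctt
Mmp14, chr14:54431348-54431597, plus strand: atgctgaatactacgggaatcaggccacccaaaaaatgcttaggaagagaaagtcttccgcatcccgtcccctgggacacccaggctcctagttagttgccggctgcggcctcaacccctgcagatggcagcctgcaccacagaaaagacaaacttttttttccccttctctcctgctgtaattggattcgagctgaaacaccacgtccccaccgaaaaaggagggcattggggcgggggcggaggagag
The capitals mark GGAATG, the letters of a TEAD motif, which begins 247 bases before the start of Timp1. The windows of 300 bases (250 before and 50 after the start) of 32851 promoters were searched on both strands for 4 motifs: TGANTCA (AP-1), CTTTGA (TCF), GGAATG (TEAD) and TTCNNNGAA (STAT). They occurred in 7.81%, 16%, 14.7% and 8.3% of all windows in that order. Besides its TEAD match the Timp1 window holds CTTTGA 3 bases after the start. The windows of Adamts1, Mmp14, Timp2 and Timp3 held 0 matches to these letters.

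Among WT kidneys, urokinase became more abundant with age and Timp1 less so. Timp1 had 10.5, 5.92 and 9.18 RPKM in WT mice at P0, 5.76, 9.25 and 5.66 RPKM at P3 and 1.77, 2.75 and 1.79 RPKM at P12. All P12 mice lay below all younger ones, while P0 and P3 overlapped. The fitted log2 fold change was -2.02 ± 0.252 (SE; adjusted p = 1.85e-07, edgeR quasi-likelihood test with Benjamini-Hochberg adjustment, which applies to all adjusted p-values here) for P12 against P0. Plau had 119, 235 and 133 RPKM at P0, 192, 166 and 248 RPKM at P3 and 386, 398 and 396 RPKM at P12. The P12 libraries again stood apart from all younger ones, this time above them, at a log2 fold change of 1.27 ± 0.193 for P12 against P0 (adjusted p = 3.8e-06).

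In that comparison 4 of 8 members were called, against 49.8% of all genes. Mmp2, gelatinase A, rose to 86.1 ± 1.67 RPKM at P12, against 60.4 ± 12.5 RPKM at P0 (SD, n = 3 each; log2 0.51, adjusted p = 0.00976), a call lost without WT replicate 2 of P0 (0.39, adjusted p = 0.0643). Adamts1, which cleaves proteoglycans such as versican and aggrecan, fell to 31.6 ± 5.1 RPKM, against 47.4 ± 14.1 RPKM (log2 -0.58, adjusted p = 0.0182); its P0 mean rests on 1 mouse at 63.6 RPKM, and without that mouse the log2 fold change was -0.32 (adjusted p = 0.228). The call was also lost without replicate 2 (-0.55, adjusted p = 0.057) or 3 (-0.50, adjusted p = 0.0846) of P12. Timp1, Plau, Mmp14 and Timp3 changed between P3 and P12, 4 of 8 members against 35.5% of all genes. Mmp14, a membrane-bound metalloproteinase that activates pro-MMP2, fell by 0.62 on the log2 scale (adjusted p = 6.67e-06), with 44.3 ± 1.99 RPKM at P12 and 68 ± 5.98 RPKM at P3. Timp3, the inhibitor that stays bound to matrix, rose by 0.69 (adjusted p = 0.000385), with 96.5 ± 11.7 RPKM at P12 and 59.8 ± 9.7 RPKM at P3.

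Between P3 and P0 in WT kidneys 3 of 8 members were called, against 24.7% of all genes. Mmp14 rose (log2 0.46, adjusted p = 0.00101), though not in the fit of these libraries alone (0.45, adjusted p = 0.0615). Timp3 (-0.40, adjusted p = 0.0381) and Adamts1 (-0.55, adjusted p = 0.0483) fell, with calls that rest on single mice. Timp3 was not called without replicate 2 of P0 (-0.27, adjusted p = 0.194) or replicate 1 (-0.44, adjusted p = 0.0582) or 2 (-0.28, adjusted p = 0.183) of P3. Adamts1 gave -0.28 (adjusted p = 0.379) without replicate 1 of P0, and was not called without any 1 of the 3 P3 mice either (-0.56 to -0.52, adjusted p = 0.0974 to 0.102). Replicate 2 of P0 held the highest Plau and Timp3 of that group; without it Plau rose at P3 against P0 (0.67, adjusted p = 0.00598) and Timp3 at P12 against P0 (0.42, adjusted p = 0.0238). Without replicate 1 of P0, Mmp2 rose at P3 (0.56, adjusted p = 0.0262). Timp2 and Plat were called in none of the 3 age comparisons of WT kidneys.

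**Figure D1:**
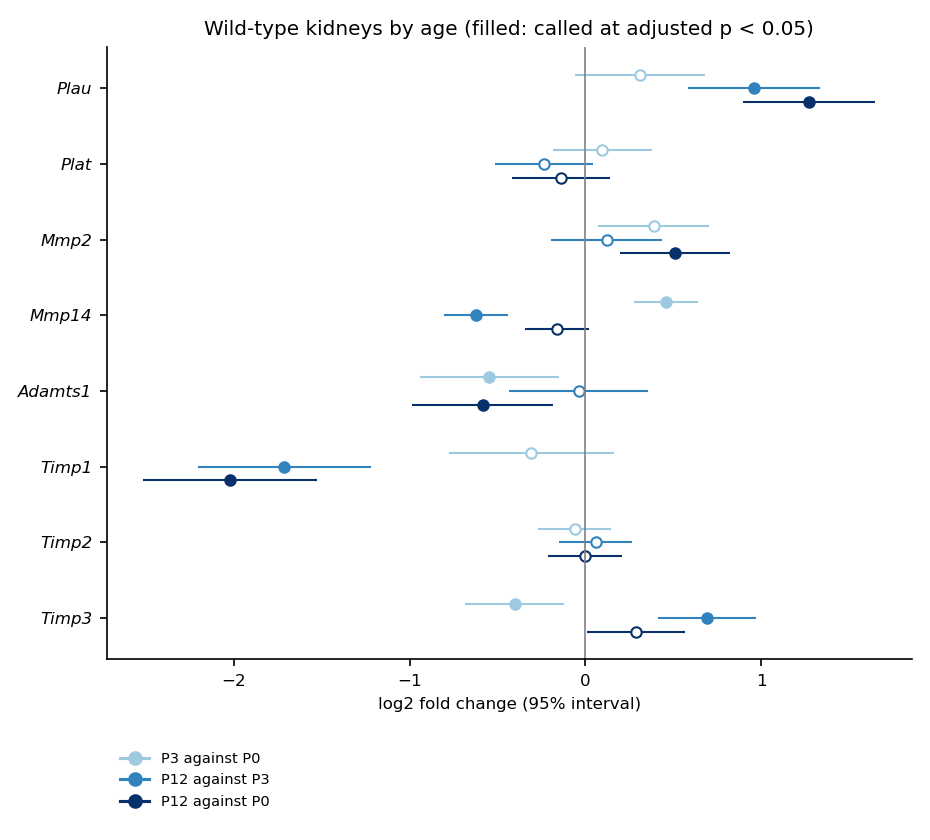
Log2 fold change of each gene between ages in WT kidneys (horizontal axis, with 95% intervals), 3 mice per age; filled points were called. Timp1 lies farthest to the left, at -2.02 for P12 against P0, and Plau farthest to the right, at 1.27.

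In digenic kidneys no member was called against WT at P0 by edgeR in the fit of that age. Urokinase was the only member called at P3, a call that was lost with a sex term. At P12 it was joined by Timp1, Adamts1 and Mmp14, and Timp1 had the largest fold change of the 8. With all libraries in the fit, no member was called lower than WT at any age.

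At P0 Plau had 348, 303 and 351 RPKM in digenic mice, against 119, 235 and 133 RPKM in WT mice. All 3 digenic mice lay above the 3 WT mice, of which replicate 2 stood higher than the others. The log2 fold change was 1.04 ± 0.25 with an adjusted p of 0.0784, so that it was not called; 0 of 8 members were, against 0.671% of all genes, by edgeR, with 1 member at an unadjusted p under 0.05. DESeq2 called 1 member, Plau (adjusted p = 0.00447), and edgeR did so without WT replicate 2 (log2 1.41, adjusted p = 0.0232). The Pkd1-RC/RC mice had 302, 219 and 248 RPKM and the Pkhd1-/- mice 179, 155 and 258 RPKM, with means between those of digenic and WT mice. Digenic mice gave 0 of 8 calls against Pkd1-RC/RC (0.0388% of all genes) and 0 of 8 against Pkhd1-/- (0.244%) at P0, with 0 and 1 members below 0.05 before adjustment and 0 by DESeq2 in both.

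At P3 Plau had 383, 476 and 321 RPKM in digenic mice, against 192, 166 and 248 RPKM in WT mice, with no overlap. It rose by 0.95 ± 0.161 on the log2 scale (adjusted p = 0.0089) and was the only member called, 1 of 8 against 2.7% of all genes called, 2.09% upwards. At an unadjusted p under 0.05 there were 4 members. Besides Plau, Adamts1 lay above WT in all digenic mice (0.27, adjusted p = 0.251). Mmp2 (-0.24, adjusted p = 0.289) and Plat (-0.27, adjusted p = 0.176) lay below WT in all of them. Against Pkhd1-/- mice, at 174, 197 and 211 RPKM, Plau also rose (log2 1.005, adjusted p = 0.00594), again as 1 of 8 members called against 3.49% of all genes, 2.65% upwards. Against Pkd1-RC/RC mice, at 227, 272 and 254 RPKM, the log2 fold change was 0.64 (adjusted p = 0.101), with 0 of 8 members called against 0.46% of all genes; DESeq2 called 1 there, Plau, and so did edgeR without digenic replicate 3 (0.77, adjusted p = 0.0283). Because sex and genotype largely coincide at P3, a sex term was added: Plau against WT was then 0.87 with an adjusted p of 0.107, and against Pkhd1-/- 0.87 with an adjusted p of 0.306.

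At P12 Plau had 576, 548 and 549 RPKM in digenic mice, against 427, 440 and 495 RPKM in Pkd1-RC/RC, 357, 354 and 374 RPKM in Pkhd1-/- and 386, 398 and 396 RPKM in WT mice. The digenic mice lay above every mouse of the other genotypes, and this was the highest level of Plau in the 12 groups. Its mean was 558 ± 15.4 RPKM in digenic and 393 ± 5.97 RPKM in WT kidneys (SD, n = 3 each), a log2 fold change of 0.50 ± 0.0794 (adjusted p = 0.000911). The fold change was nearer to 0 than at P0, but the change of the digenic effect between P0 and P12, -0.53 ± 0.269, was not called (adjusted p = 0.228). Without WT replicate 2 of P0 it was -0.90 (adjusted p = 0.0121). In the fit over all 36 libraries Plau at P12 had nearly the same fold change, 0.50, and an adjusted p of 0.0719.

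Timp1, a soluble inhibitor of most metalloproteinases, had 7.52, 6.03 and 7.17 RPKM in digenic mice at P12. The Pkd1-RC/RC mice had 3.52, 2.61 and 2.53 RPKM, the Pkhd1-/- mice 1.58, 1.44 and 1.91 RPKM and the WT mice 1.77, 2.75 and 1.79 RPKM. Every digenic mouse lay above all others, and the digenic level at P12 overlapped the levels of all 4 genotypes at P0 and P3. Against WT the log2 fold change was 1.71 ± 0.215 (adjusted p = 0.000203), against Pkd1-RC/RC 1.25 ± 0.212 (adjusted p = 0.00214) and against Pkhd1-/- 2.07 ± 0.219 (adjusted p = 5.19e-05). The call against WT held in 14 of 14 alternatives, between 1.61 and 1.95.

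At P0 Timp1 had 7.56, 7.45 and 8.37 RPKM in digenic and 10.5, 5.92 and 9.18 RPKM in WT mice, which overlapped (log2 -0.12 ± 0.254, adjusted p = 0.836). At P3 the values were 5.91, 6.35 and 7.53 RPKM in digenic and 5.76, 9.25 and 5.66 RPKM in WT mice, with overlap again (-0.08 ± 0.234, adjusted p = 0.905). The digenic effect at P12 minus that at P0 was 1.85 ± 0.344 (adjusted p = 0.000936). Timp1 was 1 of 8 members called in that comparison, against 8.79% of all genes, 5.22% upwards. Timp1 is the least abundant member, with as few as 85 counts in a library, so that counting error weighs more on it than on the others.

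Adamts1 had 49, 44.2 and 45.2 RPKM in digenic mice at P12, against 26.5, 28.1 and 33.2 RPKM in Pkd1-RC/RC, 35, 29.7 and 29.4 RPKM in Pkhd1-/- and 37.3, 29.8 and 27.6 RPKM in WT mice. The digenic mice did not overlap with any other genotype. It rose against WT by 0.55 ± 0.118 on the log2 scale (adjusted p = 0.00585), against Pkd1-RC/RC by 0.65 (adjusted p = 0.00325) and against Pkhd1-/- by 0.56 (adjusted p = 0.0042). In the fit over all 36 libraries the adjusted p was 0.0672 against WT and 0.0524 against Pkhd1-/-. At P0 its level ranged from 33.4 to 64.7 RPKM in digenic and from 38.1 to 63.6 RPKM in WT mice, a wide spread within each group.

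Mmp14 had 49.9, 60.4 and 53.2 RPKM in digenic mice at P12, against 39.9, 44.7 and 47.3 RPKM in Pkd1-RC/RC, 40.1, 37.1 and 39.1 RPKM in Pkhd1-/- and 46, 44.6 and 42.1 RPKM in WT mice. Digenic replicate 2 stood highest, and all 3 digenic mice lay above the rest. The difference was small, 0.30 ± 0.0844 on the log2 scale against WT (adjusted p = 0.0231). It was not called without digenic replicate 2 (0.23, adjusted p = 0.0545), without WT replicate 3 (0.26, adjusted p = 0.0927) or without the libraries with adrenal transcripts (0.19, adjusted p = 0.282), which leaves 1 digenic library.

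These 4 of 8 members rose against WT at P12, where 23% of all genes were called, 12% upwards. The median log2 fold change of the 8 members was 0.21, beside -0.01 over all genes. Without digenic replicate 1, the library whose header gives another age, the same 4 were called, with log2 fold changes of 1.65 for Timp1, 0.50 for Adamts1, 0.48 for Plau and 0.36 for Mmp14. Against Pkhd1-/- the same 5 as with all libraries (Timp2 and these 4) were called without it, at 0.42 for Timp2 and 2.01 for Timp1, and the change of the digenic effect on Timp1 between P0 and P12 was 1.78 (adjusted p = 0.00354). Against Pkd1-RC/RC 4 of 8 rose, among 19.5% of all genes called and 10.3% upwards, and against Pkhd1-/- 5 of 8, among 28.2% called and 15.5% upwards. The fifth was Timp2, which both inhibits MMP2 and takes part in its activation; it had 56.7, 74.4 and 62.9 RPKM in digenic and 51.7, 49.7 and 52.6 RPKM in Pkhd1-/- mice. That log2 fold change of 0.33 (adjusted p = 0.0213) was not called without digenic replicate 2 (0.22, adjusted p = 0.066) or without Pkhd1-/- replicate 1 (0.34, adjusted p = 0.0519) or 2 (0.31, adjusted p = 0.0793). Without the libraries with adrenal transcripts, which leaves 1 digenic library, the calls against Pkhd1-/- were lost for Timp2 (0.17, adjusted p = 0.383), Mmp14 (0.38, adjusted p = 0.0507) and Adamts1 (0.605, adjusted p = 0.0524), while Mmp2 (-0.72, adjusted p = 0.00233) and Plat (-0.48, adjusted p = 0.0104) were called lower. Without Pkd1-RC/RC replicate 2, the library whose header gives Pkhd1, Timp1 (1.18, adjusted p = 0.00942) and Adamts1 (0.62, adjusted p = 0.0134) rose against Pkd1-RC/RC, and Plau (0.27, adjusted p = 0.0643) and Mmp14 (0.31, adjusted p = 0.0524) were not called. Plau against Pkd1-RC/RC, 0.29 in all libraries (adjusted p = 0.0225), was also not called without digenic replicate 1 (0.27, adjusted p = 0.0561) or Pkd1-RC/RC replicate 1 (0.27, adjusted p = 0.0645), in the fit over all 36 libraries (0.30, adjusted p = 0.36) or without the libraries with adrenal transcripts (0.35, adjusted p = 0.0726). Mmp14 in that comparison was not called without digenic replicate 2 (0.24, adjusted p = 0.0569) or Pkd1-RC/RC replicate 1 (0.26, adjusted p = 0.0798), or without the libraries with adrenal transcripts (0.19, adjusted p = 0.293). Timp2 against Pkd1-RC/RC, 0.21 in all libraries (adjusted p = 0.14), was called without digenic replicate 1 (0.30, adjusted p = 0.0435).

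**Figure D2:**
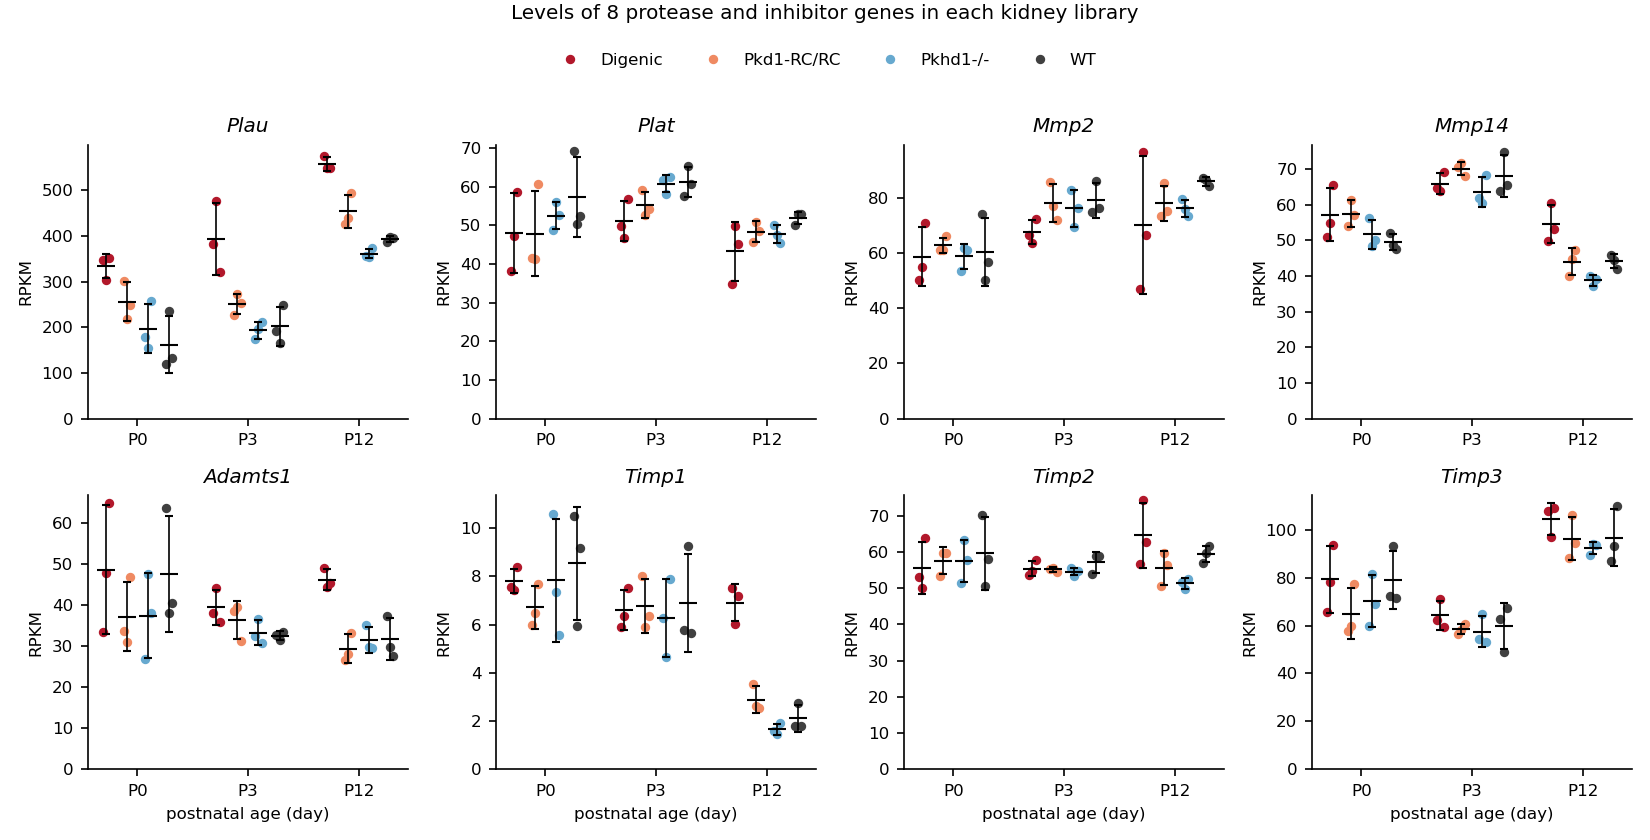
Level of each gene (RPKM, vertical axes starting at 0) in every library by age and genotype, with 3 mice per group; points are mice, bars the mean and SD. Timp1 at P12 stays at 6.03 to 7.52 RPKM in digenic mice, above the other genotypes, and Plau is highest in digenic mice at each age.

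Mmp2, Timp2, Timp3 and Plat were not called against WT at any age in digenic kidneys. Mmp2 at P12 had 47.1, 96.7 and 66.6 RPKM in digenic mice, against 87.4, 86.6 and 84.2 RPKM in WT mice. The digenic mice spread over and under the WT mice, and the log2 fold change of -0.30 had a 95% interval from -0.66 to 0.07. Digenic replicate 2, the highest mouse, weighs on this value. Without it Mmp2 was lower in digenic kidneys against WT (-0.59, adjusted p = 0.00391), Pkd1-RC/RC (-0.45, adjusted p = 0.0209) and Pkhd1-/- (-0.42, adjusted p = 0.022). Those fits keep replicate 1, the lowest mouse and the library whose header gives P3. The other digenic mice, at 96.7 and 66.6 RPKM, lay above and below all WT mice. Replicate 2 is also 1 of the libraries with adrenal transcripts, and without those libraries the value against WT was -0.85 (adjusted p = 0.000545), with replicate 1 as the only digenic library left. Plat at P12 had 34.8, 49.8 and 45.1 RPKM in digenic and 50.2, 53 and 52.8 RPKM in WT mice. All digenic mice were lower, by 0.27 on the log2 scale, with an adjusted p of 0.0878. Without digenic replicate 2 the value was -0.37 (adjusted p = 0.0171). Without digenic replicate 1, the lowest mouse and the library whose header gives P3, it was -0.13 (adjusted p = 0.252). Without the libraries with adrenal transcripts, which leaves replicate 1 as the only digenic library, it was -0.56. For Timp2 the interval at P12 ran from -0.07 to 0.31 and for Timp3 from -0.09 to 0.31.

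Neither single mutation gave a called member against WT. By edgeR 0 of 8 were called in Pkd1-RC/RC mice of each age, against 0.0166% (P0), 0.0443% (P3) and 0.267% (P12) of all genes, and 0 of 8 in Pkhd1-/-, against 0.0111%, 0.0166% and 0.0333%. DESeq2 called 0 as well in all 6 comparisons. At an unadjusted p under 0.05 there were 1, 0 and 2 members in Pkd1-RC/RC and 0, 0 and 2 in Pkhd1-/- at the 3 ages. In Pkd1-RC/RC at P12 these were Timp1 (log2 0.46, 95% interval 0.04 to 0.88, adjusted p = 0.668) and Plau (0.21, 0.06 to 0.37, adjusted p = 0.563). In Pkhd1-/- at P12 they were Mmp14 (-0.19, -0.36 to -0.03, adjusted p = 0.957) and Timp2 (-0.21, -0.40 to -0.03, adjusted p = 0.957), and all 8 members had a fold change below 0 there.

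Whether the double mutant departs from the sum of both single effects was tested as an interaction on the log2 scale. At P12 4 of 8 members were called, all above the sum, against 8.57% of all genes, 5.38% upwards. The interaction was 1.61 ± 0.303 for Timp1 (adjusted p = 0.0106), 0.66 ± 0.167 for Adamts1 (adjusted p = 0.0313), 0.495 ± 0.119 for Mmp14 (adjusted p = 0.0265) and 0.41 ± 0.112 for Plau (adjusted p = 0.04). That of Timp1 was called in 20 of 20 alternatives, between 1.37 and 1.85. The other 3 kept their direction in all alternatives but lost the call in many: Mmp14 in 5, Adamts1 in 8 and Plau in 13 of 20. Among single mice left out, these were for Mmp14 WT replicate 2, Pkd1-RC/RC replicate 1 and Pkhd1-/- replicates 2 and 3, for Adamts1 digenic replicate 3, Pkd1-RC/RC replicates 1 and 2, Pkhd1-/- replicates 2 and 3 and WT replicate 1, and for Plau any mouse but digenic replicate 2 and Pkd1-RC/RC replicate 3. The interaction of Timp2, 0.43 ± 0.136 (adjusted p = 0.0685), was called by DESeq2 (adjusted p = 0.0229) and without digenic replicate 1 (0.52, adjusted p = 0.0245). At P0 and P3 the interaction was called for 0 of 8 members, against 0.00554% and 0% of all genes, with 0 and 1 members below 0.05 before adjustment, and DESeq2 called 0 at either age. The change of each single-mutant effect between P0 and P12 was called for 0 of 8 members as well by both tools, against 0.00554% of all genes for Pkd1-RC/RC, with 1 member below 0.05 before adjustment, and 0% for Pkhd1-/-, with 0 such members.

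**Figure D3:**
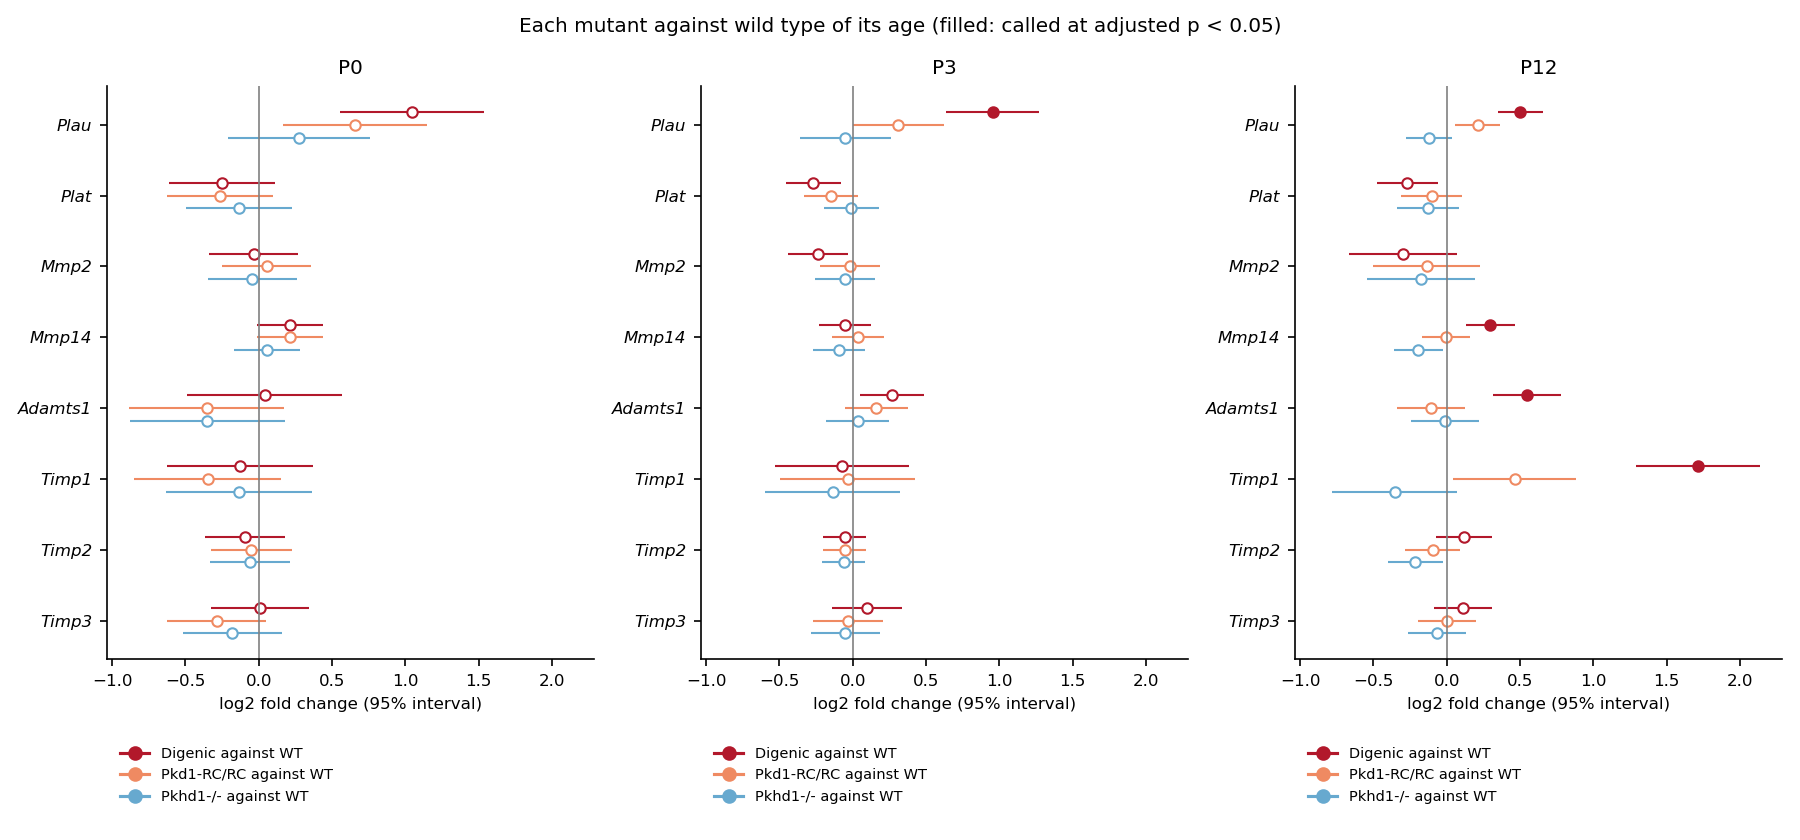
Log2 fold change (horizontal axis, 95% intervals) of each mutant against WT at P0, P3 and P12 for the 8 genes, 3 mice per group; filled points were called. At P12 the digenic values of Timp1 (1.71), Adamts1 (0.55), Plau (0.50) and Mmp14 (0.30) are filled, and both single mutants have open points throughout.

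Other genes of the same systems were read from lists, whose counts stand beside the share of all genes called in digenic against WT kidneys: 12% up and 11% down at P12, and 2.09% up and 0.61% down at P3. Sex and genotype largely coincide at P3, and the list and marker genes were not read from the fit with a sex term. Calls over all genes at P3 numbered 54 with that term, beside 487 without it. Among 11 genes of the plasminogen system read at P12, 3 rose in digenic kidneys and 1 fell. Besides Plau these were the urokinase receptor Plaur, with 9.52 ± 2.52 RPKM in digenic and 4.59 ± 0.642 RPKM in WT kidneys (log2 1.05, adjusted p = 0.00292) and Cpb2, a carboxypeptidase that slows fibrin breakdown, with 3.63 ± 0.579 and 1.94 ± 0.125 RPKM in digenic and WT kidneys (0.91, adjusted p = 0.00757). Serpini1, neuroserpin, an inhibitor of tissue-type activator, fell to 0.623 ± 0.211 RPKM in digenic kidneys, against 1.6 ± 0.19 RPKM in WT kidneys (log2 -1.36, adjusted p = 0.000843). The list median was 0.14, beside -0.01 over all genes. At P3 1 of 12 rose, Plau, and 2 fell, Serpini1 (-0.92, adjusted p = 0.00373) and the protease inhibitor Serpine2 (-0.45, adjusted p = 0.0325). At P0 0 of 12 were called.

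Of 5 measured metalloproteinase inhibitors, 2 rose at P12, Timp1 and A2m, a broad protease trap, which remained close to 0 in both groups (0.0575 ± 0.00953 RPKM in digenic and 0.0112 ± 0.00896 RPKM in WT kidneys; log2 2.28, adjusted p = 0.0201). Of 14 metalloproteinases 2 rose and 1 fell at P12, with a list median of -0.14; 3 of 14 called is near the 23% of all genes. Beside Mmp14 the rise was in Mmp8, the collagenase of neutrophils, with 0.891 ± 0.733 RPKM in digenic and 0.0505 ± 0.0174 RPKM in WT kidneys (4.14, adjusted p = 0.00345), a low level that spread from 0.0929 to 1.53 RPKM over the digenic mice. Mmp24 fell (-0.33, adjusted p = 0.0411). Neither list had a called gene at P0 or P3.

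The ADAMTS and ADAM proteases moved in both directions, 5 of 25 up and 6 down at P12 (12% and 11% over all genes), with a list median of -0.04. Adamts5, an aggrecanase, fell to 4.79 ± 1.02 RPKM in digenic kidneys, against 11.4 ± 0.191 RPKM in WT kidneys (log2 -1.25, adjusted p = 4.69e-05), and Adam12 fell to 6.48 ± 1.2 RPKM, against 14.2 ± 1.08 RPKM in WT kidneys (-1.13, adjusted p = 8.97e-05). Adamts2 (0.54, adjusted p = 0.000693) and Adamts3 (1.22, adjusted p = 0.000839), which process the N-propeptides of procollagens, rose. At P3 3 of 25 rose, against 2.09% of all genes, and 0 fell: Adam8, an ADAM of leukocytes (2.24, adjusted p = 0.00468), Adamts2 (0.46, adjusted p = 0.0208) and Adamts20 (0.89, adjusted p = 0.0426). Of 4 meprins and tolloids, Mep1a of the proximal tubule brush border rose at P3 (0.66, adjusted p = 0.028) and Tll1 fell at P12 (-0.63, adjusted p = 0.0392). Of 15 matrix substrates read, 1 rose at P12, a share below the 12% over all genes, the laminin chain Lama5 (0.45, adjusted p = 0.0221), and 0 at P3. None of these 3 lists had a called gene at P0.

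**Figure D4:**
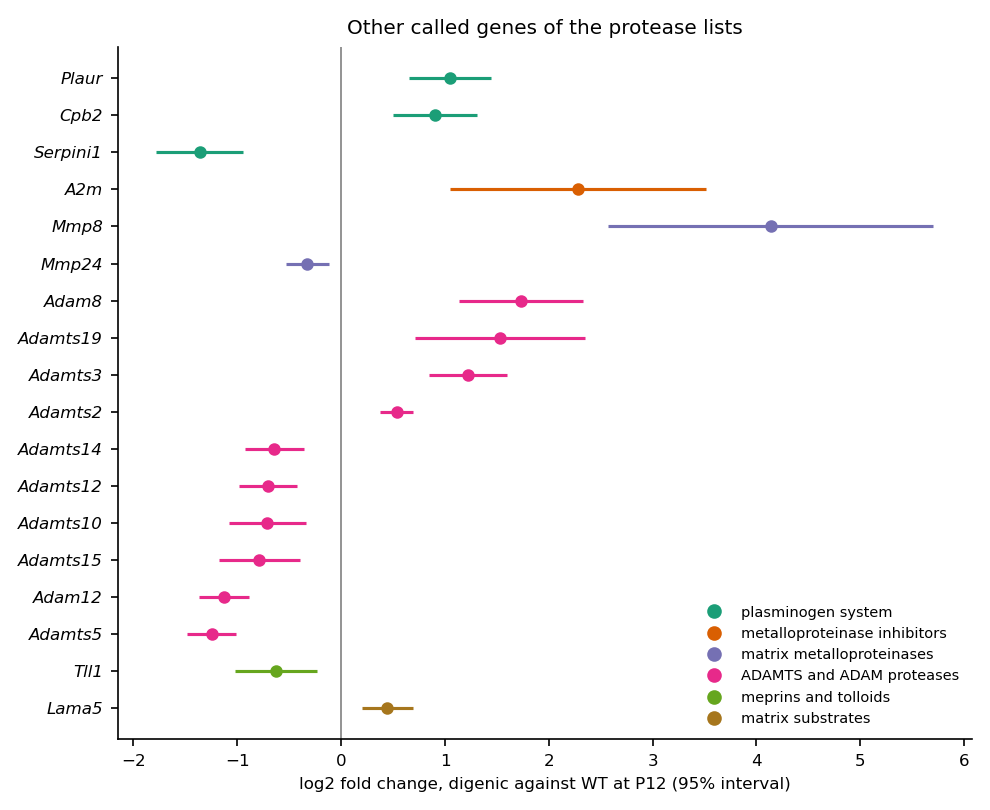
Log2 fold change (horizontal axis, 95% intervals) in digenic against WT kidneys at P12 of the called list genes other than the 8 described, 3 mice per group; colours give the list. Plaur and Cpb2 lie above 0 and Serpini1 below it, while the ADAMTS and ADAM genes lie on both sides.

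Markers of several cell types differed at P12 together with these genes, where 12% of all genes rose and 11% fell in digenic against WT kidneys. In bulk tissue, fewer cells of a type and less RNA per cell cannot be told apart. All 10 macrophage markers rose, and their summed level ran from 415 to 1080 CPM (read counts scaled by library size only) in digenic and from 174 to 217 CPM in WT kidneys. All 4 measured neutrophil markers rose (9.8 to 93.1 CPM in digenic, 2.16 to 6.49 CPM in WT kidneys); Mpo, Elane and Camp are not analysed here. All 7 collecting duct markers rose (2670 to 3480 CPM in digenic, 830 to 1040 CPM in WT kidneys), 6 of 8 injured tubule markers rose (2190 to 5470 CPM and 1590 to 2270 CPM in digenic and WT kidneys) and so did 3 of 5 smooth muscle markers (826 to 1270 CPM and 519 to 668 CPM in digenic and WT kidneys).

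Proximal tubule markers, 5 of 8, fell (2850 to 3490 CPM in digenic, 5440 to 6660 CPM in WT kidneys), as did 6 of 7 endothelial and 3 of 9 fibroblast markers. Beside these and the following counts stand the 11% down and 12% up over all genes. Of 5 loop and distal tubule markers 3 fell (2580 to 2940 CPM in digenic, 3880 to 4060 CPM in WT kidneys), of 5 podocyte markers 2 (600 to 853 CPM and 919 to 1000 CPM in digenic and WT kidneys) and of 5 nephron progenitor markers 2 (11.3 to 18.9 CPM and 22.2 to 28.4 CPM in digenic and WT kidneys). Of 5 measured lymphocyte markers 2 rose and 1 fell, with sums of 11.8 to 27.7 CPM in digenic and 7.51 to 11.8 CPM in WT kidneys. The summed fibroblast level ran from 3090 to 6060 CPM in digenic and from 4770 to 5080 CPM in WT kidneys, lowest in digenic replicate 1 and highest in replicate 2, the same order of mice as Mmp2 at 47.1 and 96.7 RPKM. Replicate 2 had the lowest macrophage and neutrophil sums of the digenic mice and the lowest Timp1 of them, 6.03 RPKM. The part of these markers in the levels of the 8 genes was not tested. At P3, where Plau was already called higher in the fit without a sex term, 4 of 10 macrophage markers and 0 of 7 collecting duct markers were called up in that fit. The share of all genes called up there was 2.09%. The summed collecting duct level was 1100, 1950 and 1070 CPM in digenic and 721, 1020 and 1100 CPM in WT kidneys at P3. At P0 it ran from 1620 to 2110 CPM in digenic and from 1160 to 1290 CPM in WT kidneys, with no overlap, though 0 of 7 markers were called there too.

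**Figure D5:**
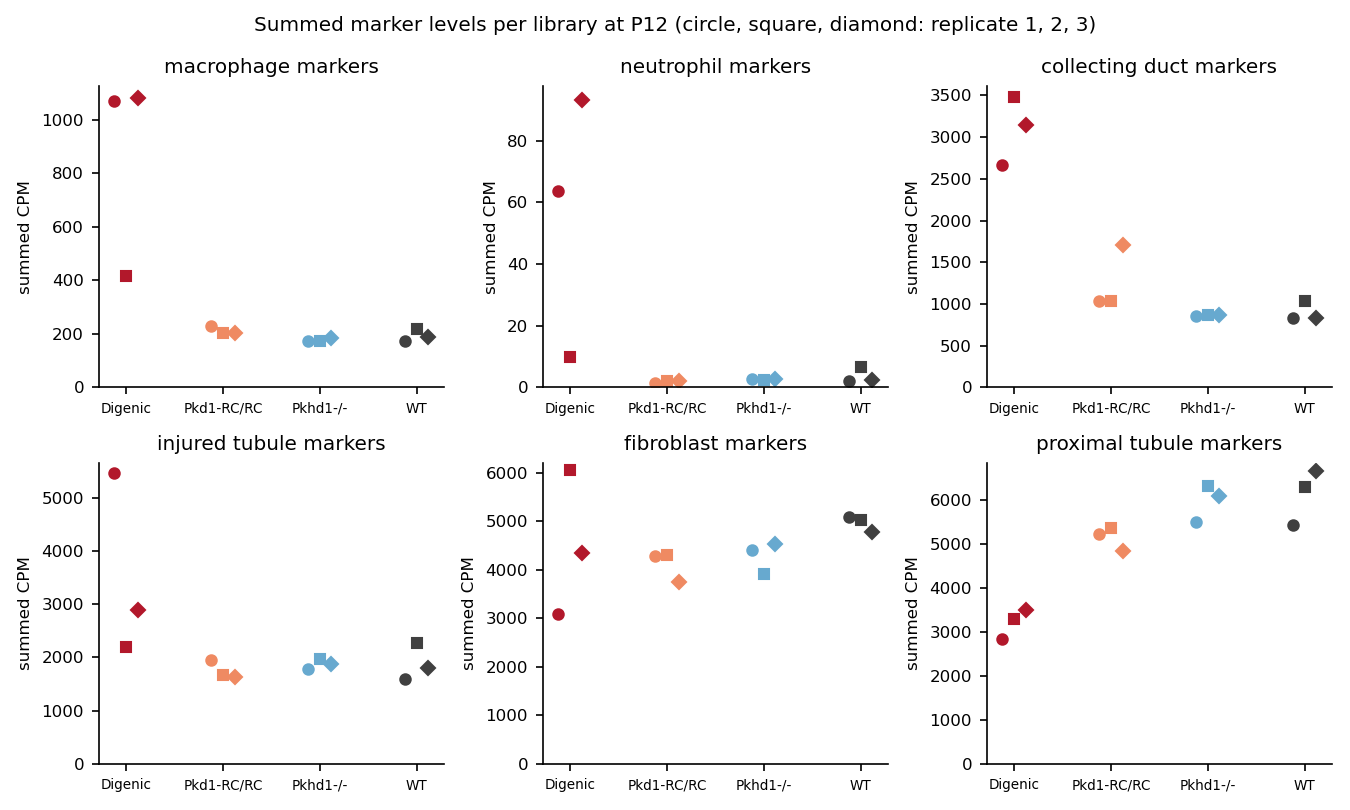
Summed level of 6 marker lists (CPM, vertical axes starting at 0) in each library at P12; shapes give the replicate. Digenic libraries lie above the others for macrophage, neutrophil and collecting duct markers and below them for proximal tubule markers, and spread from 3090 to 6060 CPM for fibroblast markers.

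The genes whose levels over the 36 libraries were most like those of each member are given as a description; libraries share age, genotype and cell make-up. Timp1 was most like Tgfbi (Pearson r = 0.945), Myc (0.941) and Penk (0.93). Plau was most like Lrrc31 (0.961), Rab38 (0.931) and Krt80 (0.93). For Adamts1 the nearest were Fosl2 (0.884), Klf6 (0.875) and Irs2 (0.854), for Mmp14 Pbx3 (0.895), Basp1 (0.892) and Adamts19 (0.889), and for Timp3 Gng12 (0.945), Pip4k2c (0.936) and Tns1 (0.921). Mmp2 was nearest to Colec12 (0.821), Lrfn2 (0.821) and Thra (0.819), Plat to Serpine2 (0.807), Leprel2 (0.795) and Wipf3 (0.774), and Timp2, with the lowest values, to Ski (0.715), Rnf144b (0.713) and Tspan15 (0.704). Among the members themselves the highest correlation was between Mmp14 and Timp1 (0.706) and the lowest between Mmp14 and Timp3 (-0.721).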

How the data were processed

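Whole-kidney RNA of 36 mice was sequenced, 3 per group of genotype and age. Per the submitters' processing notes the authors used TopHat2, Bowtie, MAP-RSeq 2.1.0 and featureCounts on mm10. The deposited table holds raw counts per gene and library, per the file headers; a gene length column of the deposited file served for RPKM. The 36 normalized and 16 mean columns were not used. Listed genes have a mean of at least 8.75 counts, and totals ran from 51411240 to 80789299.

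Counts were tested with edgeR 4.0.16 in R 4.3.3: filterByExpr, TMM scaling and a robust quasi-likelihood fit, per age (12 libraries) for genotypes and over all 36 for ages and changes of effects. Calls rest on p-values adjusted by Benjamini-Hochberg across all genes tested, with a threshold of 0.05; standard errors are the fold change over the root of F, and 95% intervals are normal. RPKM used TMM over 36 libraries. The code was tested on simulated data. Replicates are separate mice by their labels. Counting error adds to the spread between mice for genes with low counts, such as Timp1 with 85 in 1 library.

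Alternatives were DESeq2 1.42.0, RLE scaling, no filter, the other set of libraries (all 36 in place of 12, or the reverse), a sex term, the replicate number as a block, a length correction, leaving out the libraries with adrenal transcripts, and leaving out each library. Sex was read from sex-linked transcripts and differed from the header in 3 of 36 libraries. The members, lists and tests were chosen with earlier results of these data known. All 9 members were to be named in every comparison, with up to 4 called genes of smallest adjusted p per list in digenic against WT, and the 3 genes of highest r per member whose mean log2 CPM was 0 or more. RefSeq promoters (GRCm38.p6) were found for 6 of 9 members; proteins were not used here. Some genes of the pathway lists are not reported here and are left out of the list counts.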

Additional observations from a re-analysis of the deposited data

Results flagged for a closer look

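Under the tests of a difference between effects, 5 results stood out. At P12 the effect of the second mutation differed between backgrounds for 4 genes, with interactions on the log2 scale of 1.61 for Timp1 (adjusted p = 0.0106), 0.661 for Adamts1 (adjusted p = 0.0313), 0.495 for Mmp14 (adjusted p = 0.0265) and 0.412 for Plau (adjusted p = 0.04; edgeR). Over 20 alternatives the interaction kept its call in all for Timp1, and lost it in 8 for Adamts1, 5 for Mmp14 and 13 for Plau. The digenic effect on Timp1 differed between P12 and P0 by 1.85 (adjusted p = 0.000936). Groups of 3 mice were too small to test for single samples that stand apart, and each library was left out in turn instead.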

How the results depend on the processing

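For 49 fold changes of members, 734 alternatives gave 655 with the same direction and call, 66 that lost a call, 13 that gained one and 0 that reversed. Timp1 kept each call it had at P12. Members called in digenic against WT numbered 1 at P0, both with DESeq2 and when all libraries were fitted, 0 at P3 with a sex term and 2 at P12 in the fit of all libraries; with 1 library left out they ranged from 0 to 1, 1 to 1 and 3 to 5 at the 3 ages (the 5, without digenic replicate 2, hold 3 rises and the falls of Mmp2 and Plat). Against Pkhd1-/- the number was 1 at P0 in the fit of all libraries, which called 1174 of all genes, beside 44 as reported. It was 0 at P3 with a sex term, which called 4 of all genes, beside 630 as reported. Against Pkd1-RC/RC the number of members was 1 at P3 with DESeq2, which called 525 of all genes, beside 83 as reported. With 1 library left out it was 0 to 1 at P3 (9 to 456 over all genes) and 2 to 4 at P12 (2205 to 3667). The interaction at P12 gave 2 in the fit of all libraries, 2 without libraries with adrenal transcripts (Timp1 up, Mmp2 down) and 1 to 4 with 1 library left out. WT P3 against P0 gave 0 in the fit of its own libraries, which called 1464 of all genes, beside 4465 as reported. With 1 library left out it gave 1 to 3 (2806 to 5033 over all genes). The change of the digenic effect gave 1 to 2 with 1 left out (891 to 2472 over all genes). The cause was not tested.

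Over all genes, calls in digenic against WT at P0 numbered 121, 704 with DESeq2, 1645 in the fit of all libraries, 218 with a sex term and 56 with the replicate block. With 1 library left out they ran from 21 to 170. At P3 they numbered 487, and 1118 with DESeq2, 54 with a sex term, 282 with the replicate block and 152 to 845 with 1 library left out. At P12 they numbered 4141, with 2772 in the fit of all libraries and 2658 to 4410 when 1 library was left out. The interaction at P12 gave 1542, and 2729 with DESeq2, 849 when all libraries were fitted and 558 to 2076 with 1 left out. Same-numbered libraries correlated over 0.1 in 5 of 18 pairs at P0, 2 of 18 at P3 and 5 of 18 at P12. The correlations ran from -0.369 to 0.603, -0.704 to 0.391 and -0.304 to 0.207 at the 3 ages. Pairs with different numbers were not set beside them, so that this does not settle whether replicate numbers pair the mice. With the number as a replicate block, Plau lost its call in the interaction at P12 (0.416) and Adamts1 in WT P3 against P0 (-0.548).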
